A study of Mus musculus with 4 samples.

Results

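Ribosomal protein genes were examined for WT1 peaks in developing mouse kidney. The members were taken by symbol from RefSeq: protein-coding genes named Rpl or Rps and a digit, with Rplp0, Rplp1, Rplp2 and Rpsa, and without the Rps6k kinases. That rule gave 91 of the 21887 protein-coding genes outside the mitochondrial genome. Of these, 46 encode proteins of the large subunit or its stalk and 31 proteins of the small subunit. The other 14 are paralogues, retrogene-like copies and 1 gene, Rps19bp1, whose product binds a ribosomal protein and is not itself part of the ribosome.

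WT1, a DNA-binding protein with zinc fingers, acts in podocytes and nephron progenitors. The data come from chromatin immunoprecipitation and sequencing (ChIP-seq) of kidneys dissected from wildtype embryos of a mixed background (C57Bl6 crossed with B6DBA/F1) late in gestation (E18.5). A WT1 antibody (C-19) was used for 2 samples and IgG, as the negative control, for 2, in experiments described as independent; values here are those of the WT1 samples, and IgG was not analysed here. The tissue is whole kidney, so cells without WT1 contribute chromatin to every sample. Nothing in the labels says whether the samples came from separate litters.

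Cytosolic ribosomes are built from ribosomal RNA and a large set of proteins, each normally encoded by a single active gene. These genes are transcribed at a high rate in nearly all cells, from short promoters with ETS-family and YY1 sites and a pyrimidine tract at the start of transcription. They serve here as a set of promoters taken to be very active, at which to look for WT1 peaks. Their activity in these kidneys was not measured here. The description is of the genes of the 2 subunits and not of the 14 paralogues and other genes in the set.

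Peaks came from 4 lists. Replicate 1 held 53132 peaks and replicate 2 held 57641, each with a significance value (a p-value or a q-value, not stated which) of at most 0.0499. A table of 17234 regions found in both replicates carries an irreproducible discovery rate (IDR), an error rate that is low where both replicates rank a region highly. Regions with an IDR of 0.05 or lower, 4411 in number, are called reproducible. A gene was counted when the midpoint of a peak lay within 1 kb, or within 10 kb, of either of its ends. The files give no read counts, so depth is unknown. Of 9 genes of podocytes, nephron progenitors and early kidney that were looked up in the lists, Wt1 and Gas1 had a reproducible region within 1 kb, Osr1, Pax2 and Rspo1 had one within 10 kb only, and Nphs1, Synpo, Podxl and Six2 had none within 10 kb. That is 5 of 9 within 10 kb (55.6%), against 10.2% of all protein-coding genes. A replicate 1 peak lay within 10 kb of 8 of the 9 (all genes 50.5%), and a replicate 2 peak within 10 kb of all 9 (57.7%).

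Reproducible WT1 regions were present at a few ribosomal protein genes and absent from most. Within 1 kb of an end, 7 of the 91 genes (7.69%, exact 95% interval 3.15 to 15.2) had a reproducible region, against 4.13% of all protein-coding genes. They were Rpl7, Rpl10, Rpl24, Rpl27 and Rpl27a of the large subunit and Rps20 and Rps26 of the small subunit. Within 10 kb, 12 genes (13.2%, 7 to 21.9) had one, against 10.2% of all protein-coding genes, the additional ones being Rpl7a, Rpl18, Rpl32l, Rps10 and Rps25. Both intervals include the level of all protein-coding genes. The intervals are Clopper-Pearson intervals over genes and cover counting error only.

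Sequences of the promoters that carry a reproducible region are shown because they let the region be placed on the start of the gene. They are RefSeq windows of GRCm38.p6 from 250 bases before the start of transcription to 50 bases after it, read 5′ to 3′ on the strand of the gene. Capitals mark the bases inside the reproducible region. Rps20 and Rpl7 have no entry in the promoter table.
Rpl27 (chr11:101441995-101442294, plus strand): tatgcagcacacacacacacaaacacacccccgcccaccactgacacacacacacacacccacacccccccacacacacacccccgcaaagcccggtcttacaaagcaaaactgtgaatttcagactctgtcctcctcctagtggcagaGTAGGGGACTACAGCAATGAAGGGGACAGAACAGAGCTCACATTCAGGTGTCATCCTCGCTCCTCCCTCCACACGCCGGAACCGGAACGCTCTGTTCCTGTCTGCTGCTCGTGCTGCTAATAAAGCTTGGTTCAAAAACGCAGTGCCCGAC
Rpl10 (chrX:74270566-74270865, plus strand): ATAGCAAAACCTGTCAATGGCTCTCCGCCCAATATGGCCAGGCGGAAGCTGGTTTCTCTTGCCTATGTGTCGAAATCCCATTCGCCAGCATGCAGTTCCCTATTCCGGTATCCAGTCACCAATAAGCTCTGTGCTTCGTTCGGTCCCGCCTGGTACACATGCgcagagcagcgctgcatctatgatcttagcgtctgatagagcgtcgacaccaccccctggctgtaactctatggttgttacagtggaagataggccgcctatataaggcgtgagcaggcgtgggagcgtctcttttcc
Rpl27a (chr7:109518945-109519244, plus strand): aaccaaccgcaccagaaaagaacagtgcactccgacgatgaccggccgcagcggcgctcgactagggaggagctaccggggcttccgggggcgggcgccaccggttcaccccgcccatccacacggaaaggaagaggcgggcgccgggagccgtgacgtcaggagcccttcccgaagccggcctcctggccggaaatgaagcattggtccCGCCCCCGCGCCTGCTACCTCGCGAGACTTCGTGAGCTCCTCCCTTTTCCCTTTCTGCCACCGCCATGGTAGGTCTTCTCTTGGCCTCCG
Rpl24 (chr16:55966025-55966324, plus strand): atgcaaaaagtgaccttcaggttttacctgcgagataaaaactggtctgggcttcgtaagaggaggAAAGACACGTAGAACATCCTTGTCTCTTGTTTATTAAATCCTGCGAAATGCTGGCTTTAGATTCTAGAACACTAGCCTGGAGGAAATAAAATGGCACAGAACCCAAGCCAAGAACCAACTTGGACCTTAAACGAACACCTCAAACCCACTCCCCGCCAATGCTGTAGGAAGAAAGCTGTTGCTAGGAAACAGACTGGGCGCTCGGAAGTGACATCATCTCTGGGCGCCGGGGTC
Rps26 (chr10:128626457-128626756, minus strand): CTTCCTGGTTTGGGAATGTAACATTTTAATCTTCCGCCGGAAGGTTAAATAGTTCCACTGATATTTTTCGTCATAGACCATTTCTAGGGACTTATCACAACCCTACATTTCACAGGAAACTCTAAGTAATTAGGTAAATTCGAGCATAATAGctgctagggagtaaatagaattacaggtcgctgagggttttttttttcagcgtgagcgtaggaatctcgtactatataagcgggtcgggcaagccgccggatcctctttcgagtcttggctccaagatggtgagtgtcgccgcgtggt
The region covered 151 bases of the window at Rpl27, 162 at Rpl10, 90 at Rpl27a, 234 at Rpl24 and 152 at Rps26. At Rpl27, Rpl27a and Rpl24 it ran across the start of transcription. At Rpl10 and Rps26 it stopped upstream of it.

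Among the large subunit genes, Rpl27 had the strongest region. Rpl27 encodes a large subunit protein and is among the genes mutated in Diamond-Blackfan anaemia. Its region (chr11:101442144-101442377, 234 bp) was centred 15 bp inside the gene, with significance values of 3.64e-16 in replicate 1 and 1.69e-23 in replicate 2 and an IDR of 9.72e-06. It ranked 106th of the 867 reproducible regions found within 1 kb of protein-coding genes. No other peak of either replicate lay within 10 kb of the gene's ends, and the nearest end of another protein-coding gene, Ifi35, was 6151 bp away.

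Rpl10, on the X chromosome, encodes a late-joining protein next to the catalytic centre of the large subunit. Its region (chrX:74270516-74270727) lay 194 bp upstream of the start, at an IDR of 4.66e-04. Its significance value was 1.72e-09 in replicate 1 and 2.93e-12 in replicate 2. The same base, 74270727, ended the peak in both replicates. Rpl27a, another large subunit gene, had a peak with identical edges in both replicates (chr7:109519155-109519395), centred 80 bp inside the gene, with values of 2.18e-05 and 1.43e-09 and an IDR of 0.00466. Shared edges were not particular to these genes. The replicates also shared an edge of the reproducible region at Rpl7, Rpl27, Rps20 and Rps26, and shared none at Rpl24.

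Rpl7 and Rpl24 were the weakest of the 7 genes. Rpl24 encodes a protein at a bridge between the subunits. Its region (chr16:55966091-55966355), 52 bp upstream of the start, had values of 0.00262 and 1.14e-05 and an IDR of 0.0463, just inside the threshold. At Rpl7 the region (chr1:16105321-16105430) had values of 7e-05 and 4.95e-08 and an IDR of 0.0144. It lay 942 bp from the Rpl7 end and 506 bp from an end of Rdh10, so it was nearer to that neighbour. A second Rpl7 region, 59 bp from the end, had values of 0.0314 and 0.0376 and an IDR of 0.303.

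Rps20 and Rps26 were the small subunit genes with a reproducible region within 1 kb. Rps20 encodes a protein of the head of the small subunit. Its region (chr4:3835708-3836119, 412 bp) was the widest of the 7, 258 bp outside the gene, with values of 5.78e-08 and 3e-19 and an IDR of 2.57e-04. No other protein-coding gene had an end nearer than 34744 bp, the distance to Mos. Rps26 encodes a protein at the messenger RNA exit of the small subunit. It had a reproducible region 196 bp upstream of its start (chr10:128626605-128626800, values 9.03e-07 and 3.85e-09, IDR 0.00538) and an overlap region 544 bp upstream that was not reproducible, with an IDR of 0.403 and values of 4.64e-08 and 8.44e-04.

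**Figure D1:**
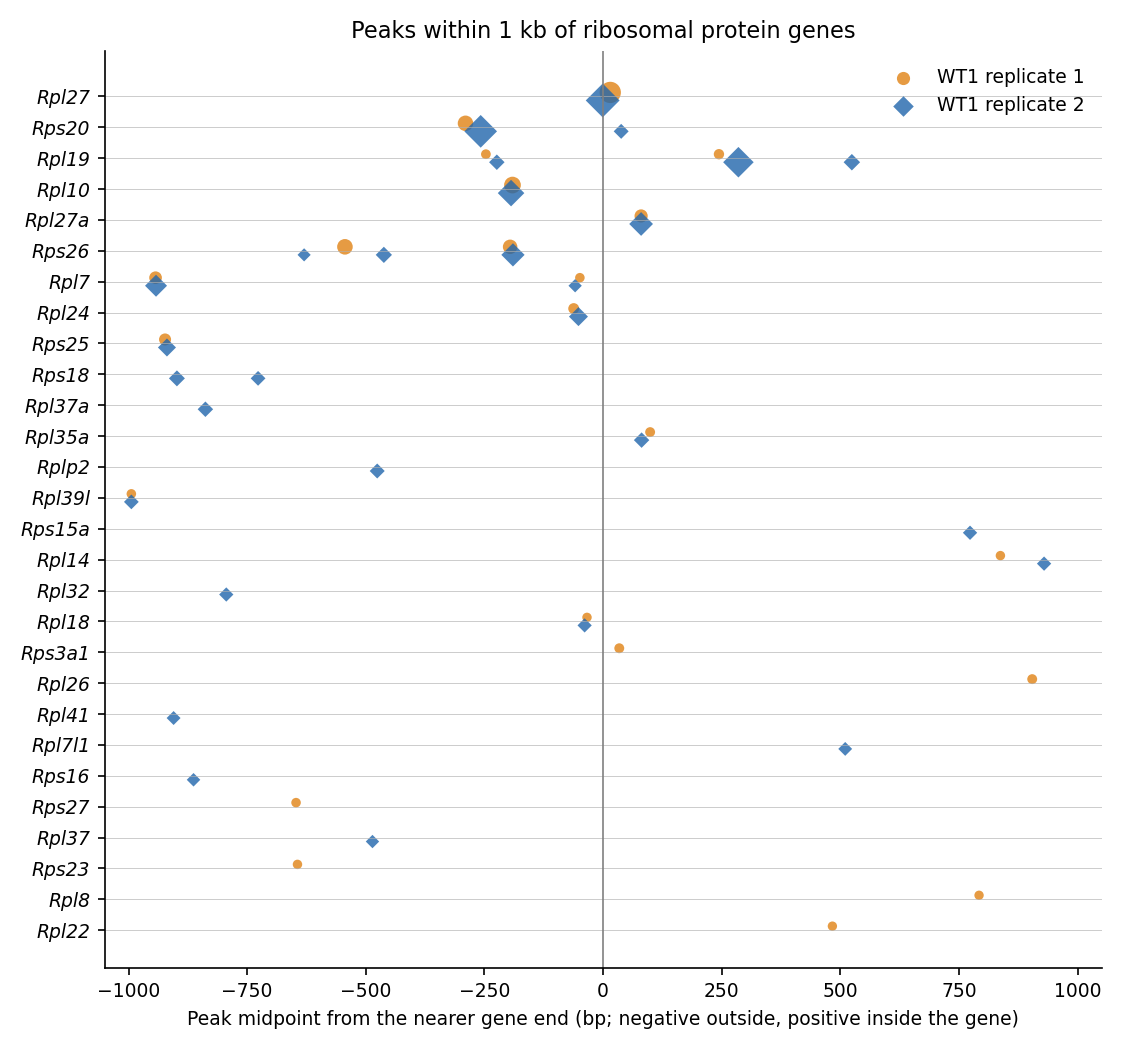
Midpoints of all peaks of WT1 replicate 1 (circles) and replicate 2 (diamonds) within 1 kb of the 28 ribosomal protein genes that had any. The x axis gives the distance to the nearer gene end in bp, negative outside and positive inside the gene, and marker size grows with −log10 of the significance value up to 20. Genes are ordered by their smallest value. Large markers of both replicates coincide at Rpl27, Rps20, Rpl10, Rpl27a and Rps26, and most genes in the lower part have a small marker of a single replicate.

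The 5 genes with a reproducible region between 1 and 10 kb from an end fell into 2 kinds. At Rps10, which encodes a small subunit protein at the messenger RNA entry, there were 3 regions upstream of the start, at 1190, 1606 and 7496 bp, with IDRs of 0.0198, 0.00474 and 3.47e-05. The farthest had the strongest values, 2.33e-16 and 7.06e-22 in replicates 1 and 2. No other protein-coding gene end was nearer to these regions, the closest being 12850 bp away. The nearest of them, at 1190 bp, was also the region just outside the 1 kb window. Rpl32l, an Rpl32-like gene and the only paralogue with a reproducible region within 10 kb, had it 3069 bp upstream with values of 5.56e-06 and 5.45e-17.

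At the remaining 3 genes the region was nearer to another gene. The one counted for Rpl7a, 7600 bp away, was 197 bp from an end of Surf6 (values 2.48e-07 and 1.31e-19). The one counted for Rps25 (chr9:44417987-44418665, IDR 1.62e-05), at 7920 bp, was 242 bp from an end of Ccdc84. It had the smallest replicate 2 value near any ribosomal protein gene, 1.22e-33, with 1.68e-12 in replicate 1. The one counted for Rpl18, 7981 bp away, was 1977 bp from Sphk2. Including Rpl7, 4 of the 14 reproducible regions within 10 kb of these genes were nearer to another gene. When each region was counted only for its nearest protein-coding gene, 6 of 91 genes remained within 1 kb (6.59%, against 3.63% of all protein-coding genes) and 8 within 10 kb (8.79%, against 7.2%).

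**Figure D2:**
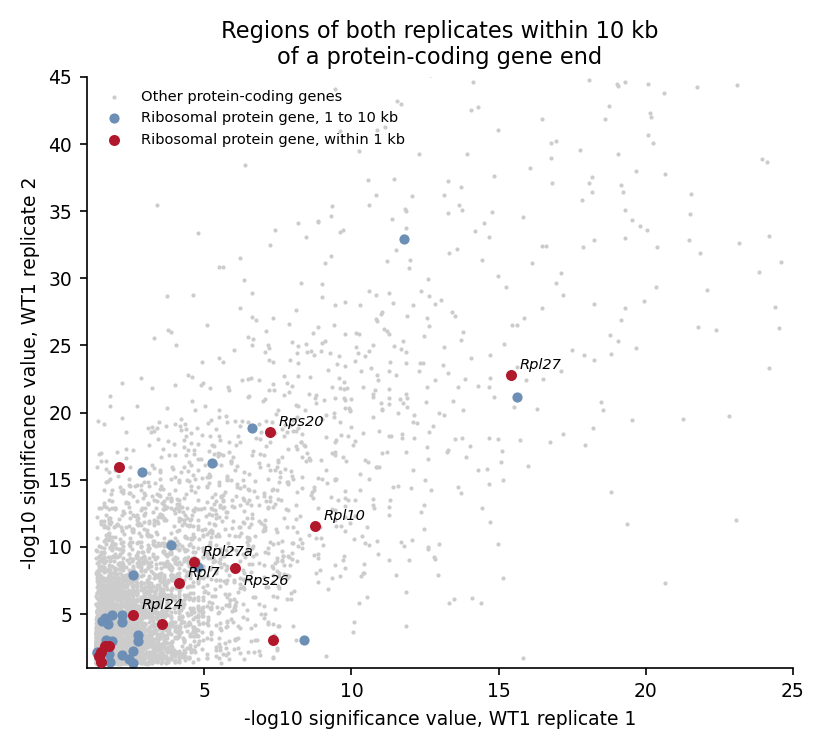
Significance values of WT1 replicates 1 and 2, as −log10, for the 6287 regions found in both replicates within 10 kb of protein-coding genes; larger values are more significant. Red and blue points are the 45 regions within 1 kb and within 1 to 10 kb of a ribosomal protein gene, and the names mark the 7 genes with a reproducible region within 1 kb. Axes end at 25 and 45, which leaves out 156 regions, 0 of them at ribosomal protein genes. Rpl27 and a region near Rps10 lie farthest to the right among the coloured points, and most coloured points lie in the lower left corner.

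Short length and crowded surroundings set these genes apart from the average gene. The median length was 3175 bp, against 17169 bp for all protein-coding genes, and 89 of the 91 were under 10 kb. An end of another protein-coding gene lay within 1 kb of an end in 35.2% of them, against 24.8% of all genes, and within 10 kb in 87.9% against 59.8%. Among the 7925 protein-coding genes under 10 kb, 2.83% had a reproducible region within 1 kb and 7.31% within 10 kb, both below the 7.69% and 13.2% of the ribosomal protein genes. The 2.83% lay below the interval of the ribosomal protein genes (3.15 to 15.2), and the 7.31% lay inside it (7 to 21.9). The genes under 10 kb were chosen by length alone, not by activity. The part of length and neighbours in the counts was not tested.

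Overlap regions of any IDR were about as frequent at ribosomal protein genes as at genes in general. Within 1 kb, 12 of 91 (13.2%, 7 to 21.9) had one, against 10.8% of all protein-coding genes and 7.41% of those under 10 kb. Within 10 kb, 24 (26.4%, 17.7 to 36.7) had one, against 27.3% and 18.6%. The 5 genes added within 1 kb were Rpl18, Rpl19, Rpl35a, Rpl39l and Rps25. The region at Rps25, 919 bp upstream of the start, was the nearest of these to passing, with an IDR of 0.0615 and values of 2.81e-04 and 5.23e-05. It lay 753 bp from an end of Trappc4.

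Rpl19 differed from the other weak genes in its gap between replicates. It encodes a large subunit protein at a bridge to the small subunit. The region 267 bp inside its annotated end had a value of 0.00796 in replicate 1 and 1.2e-16 in replicate 2, the third smallest replicate 2 value within 1 kb of a ribosomal protein gene, and an IDR of 0.304. That region lay 764 bp from an end of Cacnb1, and the start of transcription given in the promoter table is a further 4440 bp downstream of it. Altogether 5 overlap regions lay within 10 kb of Rpl19, at IDRs of 0.304 to 0.534. The one at an IDR of 0.534 was 39 bp from an end of Cacnb1 and 1070 bp from the Rpl19 end. At Rpl18 too the region 34 bp from the gene's end (IDR 0.518) was 2638 bp upstream of the tabulated start. Rpl35a, a Diamond-Blackfan anaemia gene, had a 72 bp region 20 bp downstream of its start with values of 0.0173 and 0.00254 and an IDR of 0.345. Rpl39l, a paralogue, had one 994 bp away at an IDR of 0.169.

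Each replicate alone gave shares whose intervals include those of all genes. In replicate 1, 19 of 91 genes (20.9%, 13.1 to 30.7) had a peak within 1 kb, against 16.2% of all protein-coding genes and 11.8% of those under 10 kb. Within 10 kb 39 had one (42.9%, 32.5 to 53.7), against 50.5% and 36.2%. In replicate 2, 22 had a peak within 1 kb (24.2%, 15.8 to 34.3), against 24.7% and 17.7%, and 52 within 10 kb (57.1%, 46.3 to 67.5), against 57.7% and 42.9%. In all, 63 of the 91 genes (69.2%) had no peak of either replicate within 1 kb, against 71% of all protein-coding genes, and 31 (34.1%) had none within 10 kb, against 31.2%. The level of genes under 10 kb lay below the interval of the ribosomal protein genes in 3 of the 8 comparisons, namely reproducible regions and replicate 1 peaks within 1 kb and replicate 2 peaks within 10 kb, and inside it in the other 5.

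**Figure D3:**
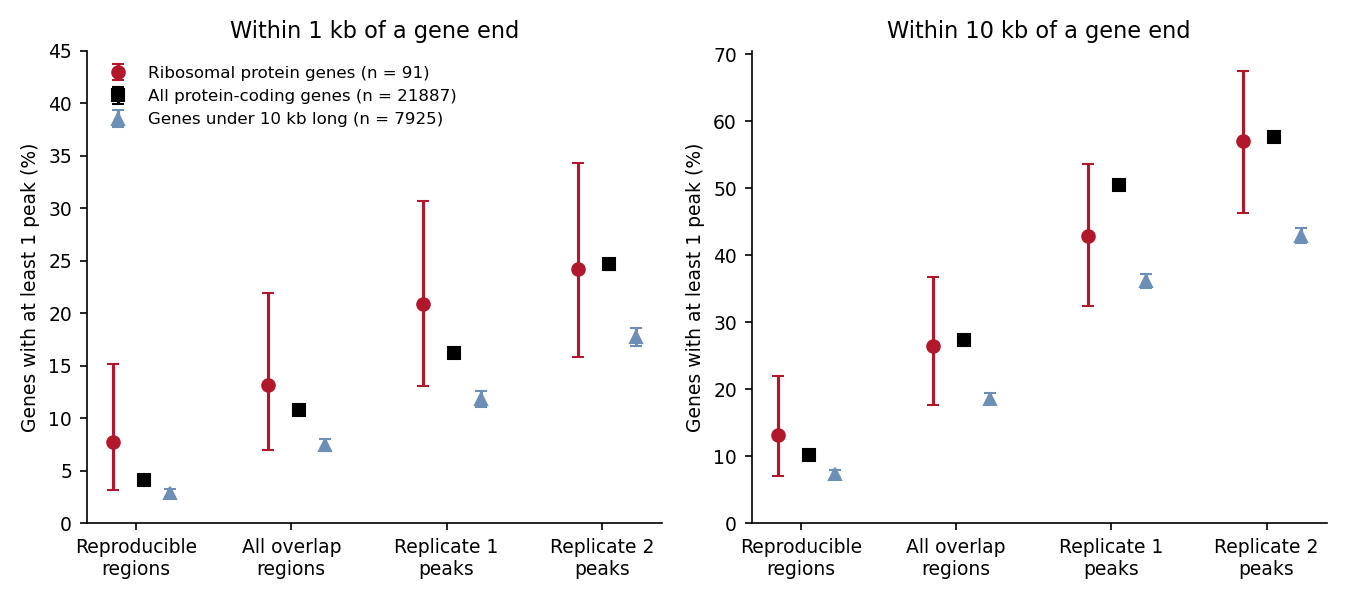
Share of genes, in percent, with at least 1 peak within 1 kb (left) and within 10 kb (right) of a gene end, for 4 peak lists. Circles are the 91 ribosomal protein genes, squares all 21887 protein-coding genes and triangles the 7925 genes under 10 kb; bars are exact 95% intervals over genes. The intervals of the ribosomal protein genes include the square in all 8 comparisons. The circles lie above the triangles throughout, and the intervals lie wholly above the triangle in 3 of the 8.

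Genes with a peak in both replicates had smaller median significance values than those with a peak in 1. Within 1 kb, 13 genes had a peak in both, 6 in replicate 1 only and 9 in replicate 2 only. The peaks of the replicates at a gene need not overlap, and 12 genes had an overlap region within 1 kb. The smallest value per gene had a median of 2.81e-04 in replicate 1 for the 13 genes and of 0.0343 for the 6. In replicate 2 the medians were 4.95e-08 for the 13 and 0.0119 for the 9. No such medians are given for all protein-coding genes, so these values do not set the ribosomal protein genes apart. The 6 smallest values of each replicate belonged to Rpl27, Rpl10, Rps26, Rps20, Rpl27a and Rpl7 in replicate 1 and to Rpl27, Rps20, Rpl19, Rpl10, Rpl27a and Rps26 in replicate 2, so 5 genes were common to both. Of the genes with a replicate 1 peak, 68.4% also had one in replicate 2, and of those with a replicate 2 peak 59.1% also had one in replicate 1; over all protein-coding genes the shares were 73.3% and 48.2%.

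Counted over peaks, 15 of the 22 replicate 1 peaks (68.2%) within 1 kb of a ribosomal protein gene overlapped a replicate 2 peak, close to 66.6% of the replicate 1 peaks at all protein-coding gene ends. For replicate 2 it was 16 of 29 (55.2%), against 37.3%. Median significance values were 0.0173 in replicate 1 and 0.00254 in replicate 2, against 0.0145 and 0.00651 at all gene ends. The 7 reproducible regions within 1 kb were 110 to 412 bp wide, with a median of 234 bp against 339 bp for the 867 reproducible regions at all gene ends. Peaks and regions are not replicates, so these values are a description.

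Peaks lay at the beginning of these genes more often than at their end, as they did at protein-coding genes in general. The promoter table gives a strand for 70 of the 91 genes. Of the 15 overlap regions within 1 kb, 12 were nearer the 5′ end, 0 nearer the 3′ end, and 3 belonged to genes with no strand in the table. In replicate 1 the counts were 16, 2 and 4, and in replicate 2 they were 19, 5 and 5. The 5′ end is that of the annotated gene. At Rpl18 and Rpl19, regions counted there lay 2638, 4440 and 4931 bp upstream of the start in the promoter table. Nearer to another gene were 2 of the 15 overlap regions, 3 of the 22 replicate 1 peaks and 8 of the 29 replicate 2 peaks. Among genes with a strand, the share nearer the 5′ end was 100% of 12 overlap regions (exact 95% interval 73.5 to 100), against 87.8% at all protein-coding genes. It was 88.9% of 18 replicate 1 peaks (65.3 to 98.6), against 80.4%, and 79.2% of 24 replicate 2 peaks (57.8 to 92.9), against 83.5%. All of these intervals include the level of all protein-coding genes. Within 100 bp of a gene end lay 6 of the 15 overlap regions, and 11 of the 15 had their midpoint outside the gene. With the 5′ end alone, 5 of 70 genes (7.14%) had a reproducible region within 1 kb, against 3.64% of all genes with a strand.

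Over the 300-base promoter windows themselves few ribosomal protein genes had a peak, and in each list the interval includes the share of all genes. A reproducible region overlapped the window of 5 of 70 genes (7.14%, 2.36 to 15.9), against 2.66% of the 17492 protein-coding genes in the table, and an overlap region of any IDR that of 6 (8.57%, 3.21 to 17.7), against 6.13%. Replicate 1 peaks overlapped 7 (10%, 4.12 to 19.5), against 6.8%. Replicate 2 peaks overlapped 6 (8.57%, 3.21 to 17.7), against 12.1%. The genes were Rpl10, Rpl24, Rpl27, Rpl27a and Rps26 in every list, with Rpl35a added in all but the reproducible one. Rps3a1, noticed after its values were seen, was the single addition of replicate 1, with a peak of value 0.0173.

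Short sequence motifs in the promoter windows were counted on both strands, over 82 windows of the 70 genes and 21263 windows of all protein-coding genes. GTGGGAG, a core of the WT1 motif, stood in 13.4% of the ribosomal protein windows and 10% of all windows. GCGTGGG, a core common to WT1 and the EGR factors, stood in 6.1% and 6.35%, and the repeat TCCTCC in 34.1% and 36.7%. The core of ETS sites, CCGGAA, stood in 45.1% against 18.7%, and that of YY1, AAGATGG, in 14.6% against 6.24%. GTGGGAG and GCGTGGG share letters and can overlap. The windows had a median of 21 CpG dinucleotides against 13 in all windows.

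In the 5 promoters printed above, GTGGGAG and GCGTGGG occurred at Rpl10 alone, once each, in the lower-case part downstream of the region. Inside the capitals, TCCTCC occurred once at each of Rpl27, Rpl27a and Rpl24, and CCGGAA 2 times at Rpl27 and once at Rpl10 and Rps26. A match is a run of letters and does not show that a factor binds there, and the absence of a match says nothing about WT1. Parts of the regions outside the windows were not searched.

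Restriction sites marked many peak edges. The labels' protocols describe a digestion of the precipitated DNA by MseI paired with either AluI or HaeIII. Of 772 replicate 1 peak starts inside promoter windows of protein-coding genes, 23.3% fell exactly on an AluI cut (AGCT), where 0.507% of window positions would, and 6.09% on an MseI cut (TTAA; 0.294% of positions). For HaeIII (GGCC) the shares were 0.777% and 0.691%. In replicate 2, of 1360 starts 15.7% fell on an AluI, 5.29% on an MseI and 0.662% on a HaeIII cut. Of 752 replicate 1 peak ends, 20.5% fell on an AluI, 6.38% on an MseI and 0.399% on a HaeIII cut. Of 1345 replicate 2 ends it was 14.9%, 5.43% and 1.56%, so HaeIII cuts were above their share of positions at the replicate 2 ends and near or below it at the other edges. The lower-coordinate edge of the Rps26 region was at such an AluI site, which stands where capitals turn to lower case in the printed window; the other 4 regions had no edge at a cut inside their window. An AluI or MseI site was lacking in 13.4% of ribosomal protein windows and 12.3% of all windows. The part of the digestion in which genes had a peak was not tested.

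Other genes of protein synthesis and other widely expressed genes were counted in the same way. Within 1 kb a reproducible region was found at 1 of 78 mitochondrial ribosomal protein genes (1.28%, 0.0325 to 6.94), 1 of 56 translation initiation factor genes (1.79%), 0 of 15 elongation factor genes, 2 of 40 ribosome assembly genes (5%), 0 of 40 proteasome subunit genes (0%, up to 8.81%) and 2 of 49 genes of respiratory complex I (4.08%). Within 10 kb the shares were 10.3%, 12.5%, 6.67%, 12.5%, 5% and 8.16% in that order, against 10.2% of all protein-coding genes. Replicate 2 peaks within 1 kb were present at 20.5%, 19.6%, 40%, 27.5%, 12.5% and 20.4% of them, against 24.7% of all protein-coding genes. The intervals of these groups and of the ribosomal protein genes overlap, and no test between groups was made. Within the ribosomal proteins the large subunit had 5 of 46 (10.9%, 3.62 to 23.6), the small subunit 2 of 31 (6.45%, 0.791 to 21.4) and the paralogues and other proteins 0 of 14 (up to 23.2%), for reproducible regions within 1 kb. Each of these intervals includes the 4.13% of all protein-coding genes.

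**Figure D4:**
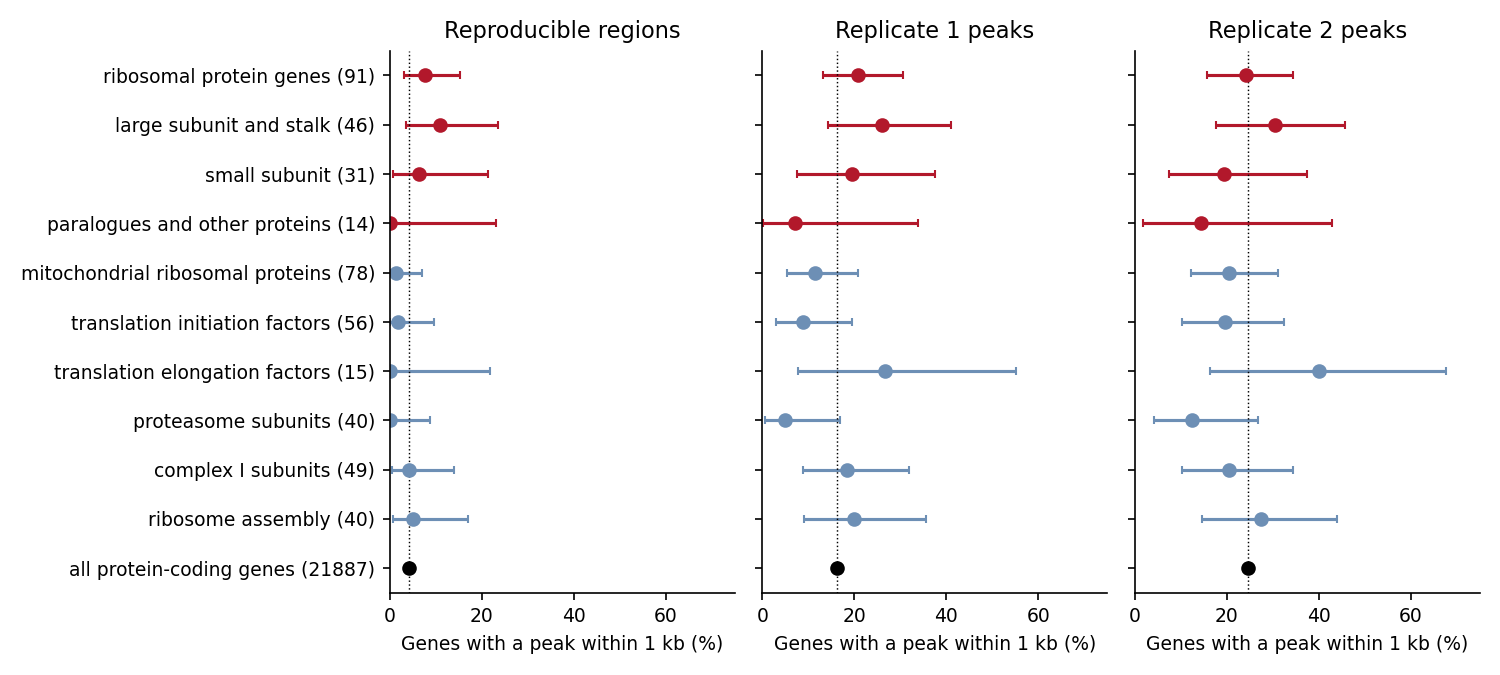
Share of genes, in percent, with a peak within 1 kb of an end, for reproducible regions and for each WT1 replicate. Red marks ribosomal protein genes and their classes, blue other groups and black all protein-coding genes, whose level is the dotted line; numbers of genes are in parentheses and bars are exact 95% intervals over genes. For reproducible regions the large subunit stands highest at 10.9%, with an interval that reaches below the dotted line at 4.13%.

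Ribosomal protein genes have many processed pseudogenes, whose sequence resembles the exons of the parent gene. RefSeq names 318 pseudogenes by these symbols. Within 1 kb of an end, 0 of them had a reproducible region (exact 95% interval up to 1.15%), 1 an overlap region, 10 a replicate 1 peak (3.14%, 1.52 to 5.71) and 8 a replicate 2 peak (2.52%, 1.09 to 4.9). For the 10124 other pseudogenes the shares were 0.188%, 0.83%, 3.73% and 3.42%. The treatment of reads that match several copies is not stated, and its part in the counts was not tested.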

How the data were processed

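WT1 ChIP-seq peaks were taken as the authors deposited them, on build mm10 per the submitters' processing notes. The sources used here do not give the aligner, the peak caller, their versions or the use of IgG reads. Column 5 of each deposited list is a p-value or q-value of at most 0.05 in the replicate lists and an IDR, a q-value-like rate, in the overlap table. Starts were converted to 1-based positions. Gene ends and biotypes came from RefSeq (GRCm38.p6), and strands and promoter sequences from its promoter table, which matched 70 of 91 members. A peak was placed by its midpoint. Shares have exact Clopper-Pearson 95% intervals (scipy 1.17.1). No test was made: there is 1 group with files, of 2 samples. Placement was tested on simulated peaks. Members and lists were chosen with earlier results of these data known, and 5 paralogue symbols were added after the gene table was read. Named genes are those with a reproducible region within 10 kb, those with any overlap region within 1 kb, and the 6 smallest values within 1 kb of each replicate; Rps3a1 is marked as noticed later. Alternatives covered placement, window, gene end, members, thresholds, number of peaks and each replicate alone. Results for some genes are not reported here.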

Additional observations from a re-analysis of the deposited data

How the results depend on the processing

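Of 68 alternative values for the 8 shares of ribosomal protein genes, 56 stayed inside the exact 95% interval of the reported share and 12 did not. A single replicate has no reproducible or overlap regions, so with 1 replicate left out as many top peaks of the other were counted in their place. For the 4411 reproducible regions, the top peaks of replicate 2 gave 7.69% within 1 kb and 14.3% within 10 kb (all genes 4.32% and 10.5%), and those of replicate 1 gave 6.59% and 13.2% (3.44% and 9.02%). For the 17234 overlap regions, the top peaks of replicate 2 gave 13.2% and 34.1% (all genes 12.3% and 28.5%). Those of replicate 1 gave 9.89% and 23.1% (8.53% and 24.4%). Fewer peaks lowered the shares of the single replicates by construction. At a significance value of 0.01 or lower the shares within 1 and 10 kb were 9.89% and 20.9% in replicate 1 (all genes 7.62% and 21.4%) and 15.4% and 39.6% in replicate 2 (15.2% and 35.9%). The 4 values from the 4411 top peaks also stand among the 68 as alternatives for the single replicates, so they are counted 2 times. A 5 kb window gave 44% in replicate 2 (45.5%). Counting a peak only for its nearest gene, an alternative chosen after seeing the data, gave 16.5% for overlap regions, 30.8% for replicate 1 and 38.5% for replicate 2 within 10 kb (20.6%, 40.5% and 46.7%). No paired analysis was possible because only the WT1 group had files here. Depth cannot be judged from the lists, and the small number of genes with a region sets the width of the intervals.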
